A study of Rattus norvegicus with 10 samples.

Results

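The enzymes of the pentose phosphate pathway were followed in rat liver by the symbols Pgls, Pgd, Rpia, Rpe, Tkt and Taldo1. Of these 6 symbols, 5 matched a row of the TPM table, among 32883 genes in all, and all 5 rows were tested. The pathway branches from glycolysis at glucose 6-phosphate. Its oxidative arm makes NADPH and a pentose phosphate, and its non-oxidative arm moves carbon between pentose phosphates and the sugar phosphates of glycolysis. In liver, the NADPH serves fatty acid synthesis and the reduction of glutathione, and ribose 5-phosphate serves the synthesis of nucleotides.

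Livers came from male Eisai hyperbilirubinemic rats (EHBR) and male Sprague-Dawley (SD) rats, all 5 weeks old, with 5 samples per strain numbered 1 to 5. EHBR is a mutant line derived from SD rats that lacks the canalicular pump Mrp2, the product of Abcc2, and is known for conjugated hyperbilirubinemia. The labels name no treatment and give no breeding or caging, so the loss of Mrp2 and other strain differences cannot be told apart here. They do not say either whether the samples of a strain came from separate animals, and p-values measure only the spread between these samples.

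Abcc2 had 10.1 to 17.6 TPM in the 5 EHBR samples and 60.0 to 271 TPM in the 5 SD samples, so every library stood on the side of its label. TPM scales transcript levels, per length, to the same total in each sample. The libraries held 13.8 to 17.6 M reads assigned to genes in EHBR and 15.6 to 19.6 M in SD. All 8 hepatocyte markers examined were detected. Samples 4 and 5 of both strains stood apart from samples 1 to 3. Across genes, the deviations of EHBR samples 4 and 5 from their strain mean correlated at r = 0.25 to 0.40 with those of SD samples 4 and 5, and at -0.35 to -0.09 with those of SD samples 1 to 3. The share of TPM from mitochondrial transcripts overlapped between these sets in EHBR, at 14.1% to 15.3% in samples 1 to 3 and 15.1% to 16.2% in samples 4 and 5. In SD it was at most 13.4% in samples 1 to 3 and 17.0% to 17.4% in the later-numbered pair. Strain differences of the enzymes are therefore also given within each of these parts.

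Of the 5 enzymes, Tkt was higher in EHBR livers and passed the test, and the other 4 did not. Tkt, which encodes transketolase, rose 1.70-fold. Taldo1, which encodes transaldolase, was 1.26-fold higher with no overlap between strains, but its adjusted p lay just above the threshold. The values of Rpia, Rpe and Pgls overlapped between the strains, and that of Pgls lay in the opposite direction. The test was limma on log2(TPM + 1), EHBR minus SD, with Benjamini-Hochberg adjustment. It took in the 11083 genes that reached 1 TPM in 5 or more samples. It called 3.82% of these genes higher in EHBR and 1.63% lower at an adjusted p under 0.05. Of the 5 enzymes, 1 was called higher and 0 lower, and 2 had an unadjusted p under 0.05 by limma, against 20.9% of all genes. The median difference was 0.33 on the log2 scale over the 5 enzymes and 0.15 over all genes tested.

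Transketolase is the thiamine-dependent enzyme that carries 2-carbon units between sugar phosphates in the non-oxidative arm. Its gene Tkt lies on the plus strand of chromosome 16, from 6609668 to 6634595 (rn6). The EHBR samples 1 to 5 had 256, 306, 287, 409 and 379 TPM, and the SD samples 1 to 5 had 172, 183, 147, 204 and 256 TPM. The lowest EHBR sample, 255.9 TPM, and the highest SD sample, 255.8 TPM, were almost level, and the other 4 SD samples lay below every EHBR sample. All EHBR samples above all SD samples was the case for 6.45% of the genes tested. Mean levels were 327 ± 64.0 TPM in EHBR and 192 ± 41.1 TPM in SD (SD, n = 5 each), and the log2 difference was 0.77 (SE 0.17, 95% confidence interval 0.41 to 1.13, adjusted p = 0.0187, limma). These values rest on 5034 to 9393 reads per EHBR sample and 2946 to 7300 per SD sample.

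Samples 4 and 5 had more Tkt than samples 1 to 3 in both strains, with means of 394 against 283 TPM in EHBR and 230 against 167 TPM in SD. The strain difference was 0.76 on the log2 scale among samples 1 to 3 (adjusted p = 0.00809, limma) and 0.78 among samples 4 and 5 (adjusted p = 0.0486, limma). The difference between these 2 values was 0.02 (adjusted p = 0.957, limma interaction term). The call depended on the scaling of the samples. With the authors' FPKM in place of TPM, Tkt was 201 ± 43.3 FPKM in EHBR and 127 ± 34.1 FPKM in SD (SD, n = 5 each), and its log2 difference of 0.67 had an adjusted p = 0.075 by limma. With each sample centred on its median gene, the difference was 0.60 (adjusted p = 0.232, limma). Without SD sample 1 it was 0.73 (adjusted p = 0.0518, limma). Its direction was the same in each of these fits.

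Transaldolase works beside transketolase and moves 3-carbon units. Taldo1 lies on the plus strand of chromosome 1, from 214375515 to 214385885. The EHBR samples 1 to 5 had 144, 158, 156, 174 and 158 TPM, and the SD samples had 129, 130, 111, 114 and 144 TPM. No EHBR sample lay below an SD sample, although the lowest EHBR sample, 144.04 TPM, and the highest SD sample, 143.79 TPM, were again almost level. Mean levels were 158 ± 10.5 TPM in EHBR and 126 ± 13.3 TPM in SD (SD, n = 5 each). The log2 difference of 0.33 (SE 0.09, 95% confidence interval 0.13 to 0.54) did not pass (adjusted p = 0.0661, limma). Samples 1 to 3 alone gave 0.31 and samples 4 and 5 alone 0.37, and neither passed (adjusted p = 0.0874 and 0.159, limma). With a term for the 2 sets of sample numbers, a fit that called 13.6% of all genes higher, Taldo1 passed (adjusted p = 0.0208, limma). Leaving out SD sample 5, which had the most Taldo1 of its strain, could only widen the difference, to 0.38 (adjusted p = 0.035, limma). Over all fits that left out 1 sample, the adjusted p was 0.035 to 0.154 (limma).

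**Figure D1:**
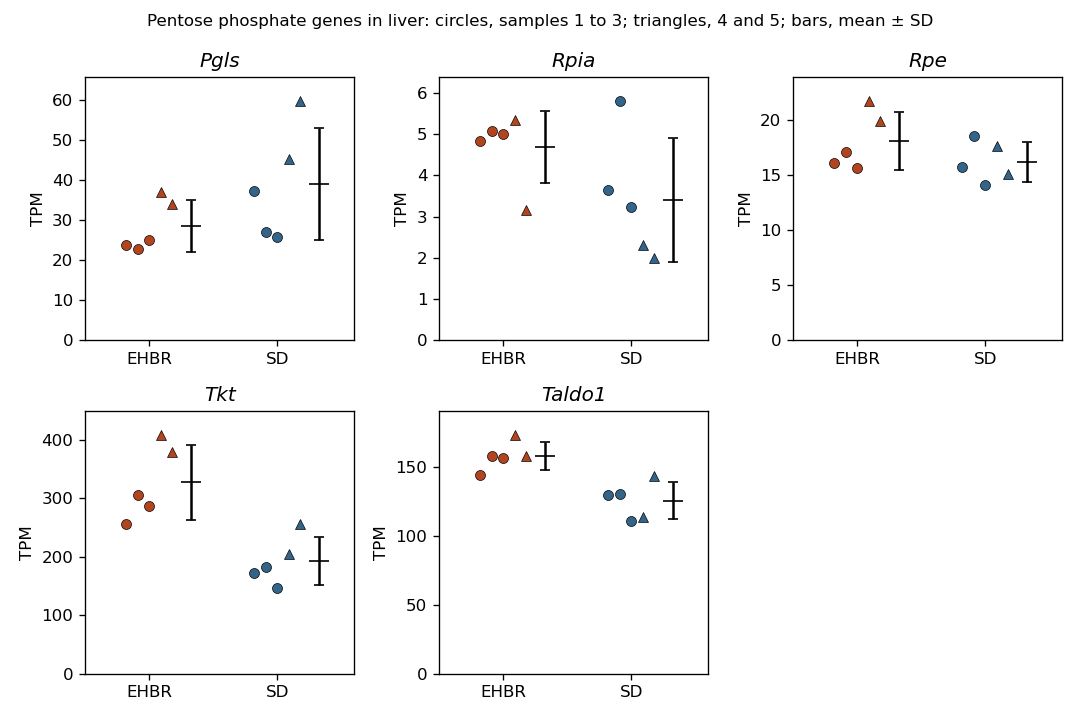
TPM of each enzyme gene with a row in every EHBR and SD sample. Circles are samples 1 to 3, triangles samples 4 and 5, and the bar beside each group is the mean with its SD (n = 5). The EHBR points lie above the SD points for Tkt and Taldo1, narrowly in both, and the strains overlap for Pgls, Rpia and Rpe.

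The start regions of Tkt and Taldo1, the pair of enzymes whose levels did not overlap between strains, are shown from RefSeq in the build GRCr8. Each is the 250 bases before the annotated start, 5′ to 3′ on the gene's strand, at chr16:5729982-5730231 for Tkt and chr1:205922946-205923195 for Taldo1. Capitals mark matches to 4 motifs searched on both strands: the core of the antioxidant response element TGACNNNGC, the E-box CACGTG, the CCAAT box CCAAT and the GC box GGGCGG. No match overlapped another in these windows.
Tkt: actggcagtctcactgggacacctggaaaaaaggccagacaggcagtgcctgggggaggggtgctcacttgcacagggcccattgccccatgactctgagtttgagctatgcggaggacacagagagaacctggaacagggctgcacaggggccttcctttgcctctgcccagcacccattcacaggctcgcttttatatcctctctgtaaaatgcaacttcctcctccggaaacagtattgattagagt
Taldo1: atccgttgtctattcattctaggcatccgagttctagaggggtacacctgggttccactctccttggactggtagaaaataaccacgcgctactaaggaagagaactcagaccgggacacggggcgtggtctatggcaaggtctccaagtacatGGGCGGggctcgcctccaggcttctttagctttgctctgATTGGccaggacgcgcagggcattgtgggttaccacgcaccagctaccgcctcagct
The Taldo1 window holds a GC box from -96 to -91 and a CCAAT box on the other strand from -57 to -53, counted from the start. The Tkt window holds none of the 4 motifs. Over 33469 windows of the same length, 34.0% hold a CCAAT box, 30.5% a GC box, 10.1% the response element core and 5.59% the E-box. Windows were also found for Pgd, Rpia and Rpe. The Pgd window holds a CCAAT box and a GC box, the Rpe window a CCAAT box and 2 GC boxes, and the Rpia window none of the 4 motifs. These matches describe the letters of the windows only.

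Ribose 5-phosphate isomerase and ribulose-phosphate 3-epimerase, encoded by Rpia and Rpe, interconvert the pentose phosphates between both arms. Rpia lies on the minus strand of chromosome 4, from 98568028 to 98593664, and Rpe on the plus strand of chromosome 9, from 73687743 to 73711571. Rpia had 4.85, 5.08, 5.01, 5.34 and 3.16 TPM in EHBR samples 1 to 5 and 3.63, 5.81, 3.23, 2.31 and 1.99 TPM in SD samples 1 to 5. EHBR sample 5 lay well below the other EHBR samples, and the highest value of all was that of SD sample 2. The log2 difference of Rpia was 0.42 (SE 0.22, 95% confidence interval -0.06 to 0.90, adjusted p = 0.302, limma), and 0.23 among samples 1 to 3 against 0.71 among samples 4 and 5. Rpia rests on 50 to 111 reads per EHBR sample and 52 to 108 per SD sample, the fewest of the 5 genes.

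Rpe had 16.1, 17.1, 15.6, 21.7 and 19.9 TPM in EHBR samples 1 to 5 and 15.7, 18.6, 14.1, 17.6 and 15.1 TPM in SD samples 1 to 5. The strains overlapped between 15.6 and 18.6 TPM, EHBR samples 4 and 5 lay above every SD sample, and SD samples 3 and 5 lay below every EHBR sample. The log2 difference was 0.15 (SE 0.12, adjusted p = 0.51, limma), with a 95% confidence interval of -0.12 to 0.41, that is, a fold between 0.918 and 1.33. It fell on the other side of 0 with upper-quartile FPKM (-0.02) and after median centring (-0.02).

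6-Phosphogluconolactonase, encoded by Pgls, opens the lactone ring in the oxidative arm. Pgls lies on the plus strand of chromosome 16, from 20020444 to 20025930. EHBR samples 1 to 5 had 23.8, 22.8, 25.1, 37.0 and 34.2 TPM, and SD samples 1 to 5 had 37.3, 27.1, 25.7, 45.3 and 59.8 TPM. Samples 4 and 5 were the highest of EHBR and of SD. Within each set of sample numbers every EHBR sample lay below every SD sample, narrowly in samples 1 to 3 (25.1 against 25.7 TPM). The share of all genes with such a pattern was not computed. The log2 difference over all samples was -0.40 (SE 0.23, 95% confidence interval -0.90 to 0.11) and did not pass (adjusted p = 0.347, limma). It was -0.30 among samples 1 to 3 (adjusted p = 0.264, limma) and -0.54 among samples 4 and 5 (adjusted p = 0.101, limma). With a term for the 2 sets of sample numbers, Pgls passed as lower in EHBR (adjusted p = 0.0428, limma), as did 3.36% of all genes.

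**Figure D2:**
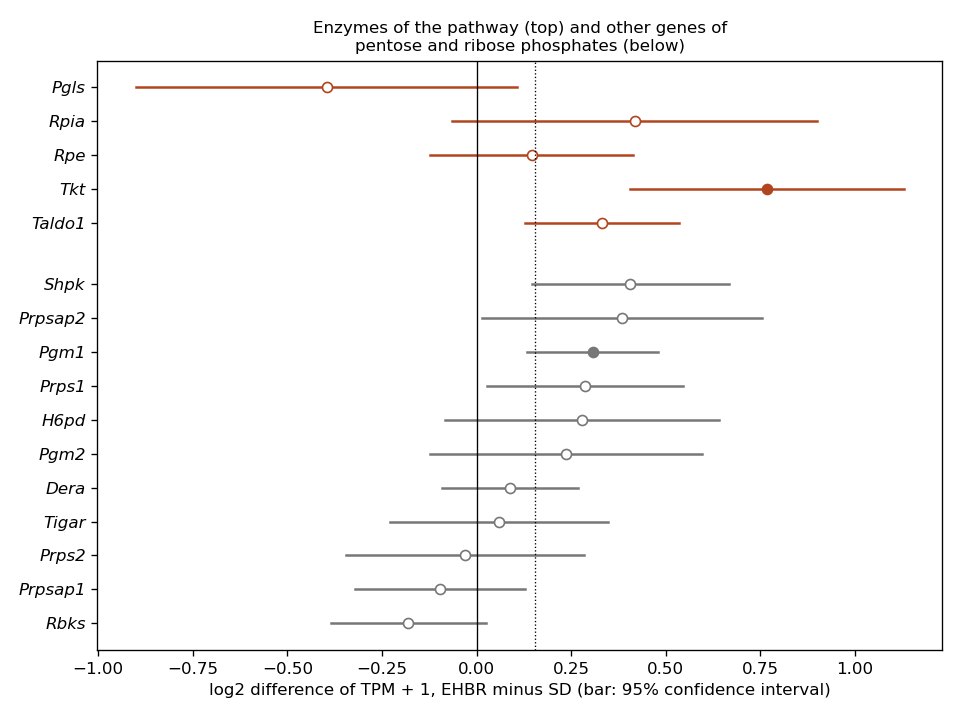
Log2 difference of TPM + 1, EHBR minus SD, with its 95% confidence interval, for the 5 enzymes (top) and the 11 tested genes of a list of other pentose and ribose phosphate genes (below). Filled points have an adjusted p under 0.05 by limma, the solid line is 0 and the dotted line the median of all genes tested (0.15). Tkt lies farthest to the right, and Pgls, Rbks, Prpsap1 and Prps2 lie left of 0.

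Pgd encodes 6-phosphogluconate dehydrogenase, the second NADPH-forming step, and no row carried its symbol. The Entrez ID that RefSeq gives to Pgd stood on the row with the symbol Kif1b, a kinesin motor gene that neighbours Pgd in GRCr8. That row spans 194916 bases of chromosome 5, from 165938576 to 166133491. Which of these genes its reads came from is not known here, and no level is given to Pgd. The row had 21.1 to 29.2 TPM in EHBR samples and 11.6 to 17.0 TPM in SD samples. The row's difference was 0.68 in log2 (SE 0.13, adjusted p = 0.00851, limma), and 0.42 with the trend on gene length removed (adjusted p = 0.206, limma).

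The order of levels per length was the same in all 10 samples: Tkt was the highest, followed by Taldo1, Pgls, Rpe and Rpia. Within the genes tested, the mean TPM of Tkt ranked 448 and that of Taldo1 762, while Rpia ranked 7752. The summed level of the 5 genes was 537 ± 81.9 TPM in EHBR and 377 ± 63.6 TPM in SD (SD, n = 5 each). The share of Tkt in that sum was 57.5% to 63.7% in EHBR samples and 48.0% to 53.7% in SD samples. The spread among samples also differed between the genes. The coefficient of variation of Taldo1 was 6.63% in EHBR and 10.6% in SD, while that of Rpia was 18.7% in EHBR and 44.3% in SD.

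Ratios between enzymes within a sample do not depend on how samples are scaled to each other, and all 10 pairs were compared. The Tkt to Pgls ratio was 10.8, 13.4, 11.5, 11.0 and 11.1 in EHBR samples 1 to 5 and 4.60, 6.74, 5.72, 4.50 and 4.28 in SD samples 1 to 5. All EHBR samples lay far above all SD samples, and the strains did not overlap in 1 of the 10 pairs, this one. The share of all gene pairs with such a pattern was not computed. The mean log2 ratio differed by 1.18 between the strains (two-sided exact permutation test, p = 0.00794, the smallest that 5 against 5 samples allow, and p = 0.0595 adjusted over the 10 pairs). Samples 1 to 3 alone gave 1.08, and samples 4 and 5 alone gave 1.33.

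The ratio of Tkt to Taldo1, its partner in the non-oxidative arm, overlapped between the strains and did not pass the adjustment. It was 2.06 ± 0.292 in EHBR and 1.52 ± 0.24 in SD (SD, n = 5 each), a difference of 0.44 in log2 (exact permutation p = 0.0238, adjusted p = 0.0595). Within each set of sample numbers the EHBR samples lay above the SD samples, at 1.78 to 1.94 against 1.32 to 1.40 for samples 1 to 3, and at 2.35 and 2.39 against 1.79 and 1.78 for samples 4 and 5. The ratios of Tkt to Rpe and of Taldo1 to Pgls were higher in EHBR by 0.62 and 0.74 in log2, with the same adjusted exact permutation p = 0.0595. With FPKM, the Tkt to Pgls and Tkt to Taldo1 ratios passed the adjustment (exact permutation, adjusted p = 0.0397 for both), with differences of 1.17 and 0.43. The unadjusted p of Tkt to Pgls was 0.00794 in both units (exact permutation), so whether it passed depended on the other pairs. Tkt to Taldo1 reached the same p with FPKM by a near tie, with the lowest EHBR sample at 1.781 and the highest SD sample at 1.779. A changed ratio shows that 2 genes differed unequally, not which of them did.

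**Figure D3:**
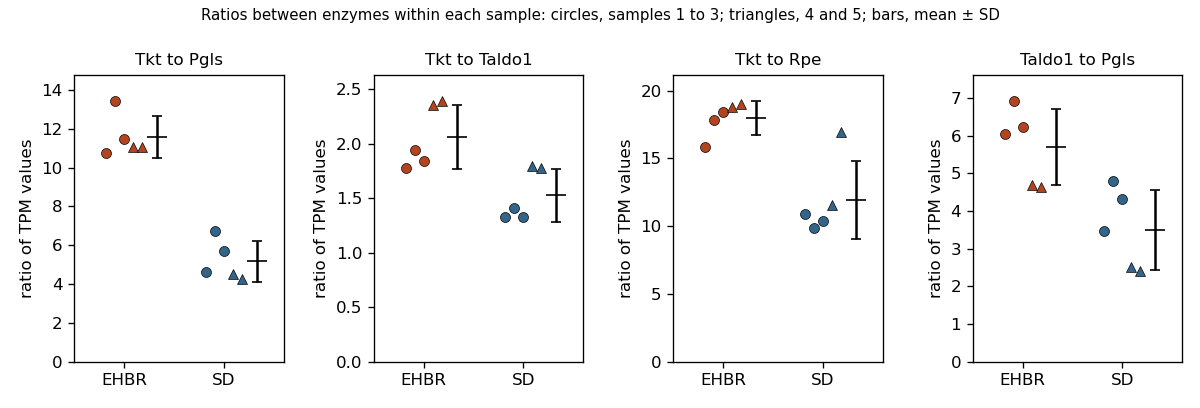
Ratios of TPM between enzymes within each sample, for the 4 of 10 pairs with an unadjusted exact permutation p under 0.05. Circles are samples 1 to 3, triangles samples 4 and 5, and bars the mean with its SD (n = 5). The Tkt to Pgls ratio lies between 10.8 and 13.4 in EHBR and between 4.28 and 6.74 in SD, and the other 3 ratios overlap between the strains.

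Other genes of pentose and ribose phosphates were followed in a list of 15 symbols, of which 14 matched and 11 were tested. The median log2 difference of the 11 was 0.24, against 0.15 over all genes. Of the 11, 1 rose in EHBR and 0 fell, against 3.82% and 1.63% of all genes tested. This was Pgm1, a phosphoglucomutase that interconverts glucose 1-phosphate and glucose 6-phosphate, at 101 ± 6.57 TPM in EHBR and 81.7 ± 3.92 TPM in SD (SD, n = 5 each, log2 difference 0.31, adjusted p = 0.0454, limma). Pgm1 missed the threshold in 19 of 25 alternatives. H6pd, which encodes the enzyme for the first 2 steps in the endoplasmic reticulum, had 44.4 ± 7.58 TPM in EHBR and 36.7 ± 7.94 TPM in SD (SD, n = 5 each) and did not pass (adjusted p = 0.357, limma), except with the term for the sample numbers (adjusted p = 0.0387). Tktl1 and Tktl2, genes related to Tkt, and Prps1l1 were listed at 0 in all samples.

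Among 12 tested genes listed as other producers of NADPH, 4 rose in EHBR and 0 fell, against 3.82% and 1.63% of all genes tested. One was the malic enzyme gene Me1 (log2 difference 1.49, adjusted p = 0.0494, limma), which missed the threshold in 17 of 25 alternatives. The folate enzyme genes Aldh1l1, Aldh1l2 and Mthfd1 had log2 differences of 0.95, 0.94 and 0.71 (adjusted p = 0.00222, 0.00755 and 0.0119, limma). By voom 3 of the 12 passed, and with FPKM 3, in fits that called 2.78% and 2.75% of all genes higher. Of 20 tested genes listed as users of NADPH, 5 rose and 2 fell, against 3.82% and 1.63% of all genes. The smallest adjusted p values included the fatty acid synthase gene Fasn at 215 ± 99.0 TPM in EHBR and 49.7 ± 19.7 TPM in SD, and the quinone reductase gene Nqo1 at 78.3 ± 7.50 TPM in EHBR and 10.8 ± 2.85 TPM in SD (SD, n = 5 each). Hmgcs1, a gene of cholesterol synthesis that stood in the same list although its enzyme uses no NADPH, fell by 1.24 on the log2 scale (adjusted p = 0.00324, limma). Nox4, the other gene that fell, had a log2 difference of -2.62 (adjusted p = 0.00867, limma). It had 0.432 ± 0.139 TPM in EHBR and 10.4 ± 7.64 TPM in SD (SD, n = 5 each). Nox4 averaged 15.8 TPM in SD samples 1 to 3 and 2.39 TPM in SD samples 4 and 5, against 0.482 and 0.356 TPM in EHBR.

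In the glycolytic steps next to the pathway, 1 of 16 tested genes rose and 0 fell, against 3.82% and 1.63% of all genes tested. It was Gpi, which encodes the isomerase that draws glucose 6-phosphate into glycolysis, with a log2 difference of 0.84 (adjusted p = 0.0077, limma), which missed the threshold in 4 of 25 alternatives: upper-quartile FPKM, median centring, samples 4 and 5 alone and the length trend removed (adjusted p = 0.0606 to 0.122). Against the same shares of all genes, 2 of 15 genes of nucleotide synthesis rose and 0 fell. These were Umps, of the pyrimidine route, and Adssl1, an adenylosuccinate synthetase gene, with log2 differences of 0.56 and 0.71 (adjusted p = 0.0161 and 0.03, limma). Umps missed the threshold in 7 of 25 alternatives and Adssl1 in 14, among them FPKM for both (adjusted p = 0.0641 and 0.106, limma). Of 11 regulators tested, 0 passed by limma, 0 by voom and 2 at an unadjusted p under 0.05, the last against 20.9% of all genes. The most abundant was Srebf1, which encodes a transcription factor of fatty acid synthesis, at 223 ± 29.6 TPM in EHBR and 146 ± 39.9 TPM in SD (SD, n = 5 each, adjusted p = 0.0751, limma). With the term for the sample numbers, which called 13.6% of all genes higher and 3.36% lower, 3 regulators passed. Among them was Srebf1 (adjusted p = 0.0424, limma), which also passed without SD sample 2 (adjusted p = 0.0482, limma).

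The 2 tested genes most like each enzyme, by Pearson's r of log2(TPM + 1) over the 10 samples, were searched among 6578 genes of 5 TPM or more on average. For Tkt they were Acsf2 (r = 0.97) and Ndufs1 (r = 0.97), and for Taldo1 Hcn3 (r = 0.98) and Spc24 (r = 0.97), all of which were called higher in EHBR by limma. This r takes in the strain difference, so the choice favoured genes that differ between strains as Tkt and Taldo1 do. Within strains, r was 0.90 for Acsf2 and 0.88 for Ndufs1 with Tkt, and 0.93 for Hcn3 and 0.90 for Spc24 with Taldo1. Ndufs1 missed the threshold in 11 alternatives, among them FPKM (adjusted p = 0.13, limma), Spc24 in 5, and Acsf2 and Hcn3 in 4 each. For Pgls they were Dad1 (r = 0.99) and Sec61b (r = 0.98), for Rpia Ptges3 (r = 0.98) and Mtpap (r = 0.97), and for Rpe Psmc6 (r = 0.95) and Adi1 (r = 0.94), and none of these 6 was called. Within strains, the deviations of Tkt and Pgls from their strain means had r = 0.89, while over all samples r was 0.04. For Tkt and Taldo1, r was 0.92 over all samples and 0.74 within strains. The points share libraries and the division of the sample numbers, so these are descriptions.

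Markers of other cells moved with strain in part, and in bulk liver fewer cells of a type and less RNA per cell cannot be told apart. Across all genes tested, 3.82% were called higher and 1.63% lower in EHBR, and 20.9% had an unadjusted p under 0.05. Of 6 tested endothelial markers, 3 rose in EHBR and 5 had an unadjusted p under 0.05, with Stab2 and Kdr at log2 differences of 0.92 and 0.66. The endothelial sums were 60.3 to 89.1 TPM in EHBR and 46.2 to 60.8 TPM in SD. Of 8 tested erythroid markers, 1 rose, Slc4a1 with a log2 difference of 0.71, and 6 had an unadjusted p under 0.05. The erythroid sums were 1383 to 3359 TPM in EHBR and 994 to 2086 TPM in SD. Of 10 Kupffer cell and macrophage markers, 0 passed by limma or voom and 2 had an unadjusted p under 0.05, with sums of 448 to 805 TPM in EHBR and 448 to 569 TPM in SD. Of 9 proliferation markers, 0 passed by limma or voom and 5 had an unadjusted p under 0.05, with sums of 54.7 to 67.4 TPM in EHBR and 30.2 to 56.1 TPM in SD. In samples 4 and 5, Cdk1 averaged 4.76 TPM in EHBR and 0.18 TPM in SD, and Top2a 2.04 TPM in EHBR and 0.089 TPM in SD. Both were picked after their values were seen, and Pcna, Birc5 and Tyms differed less in proportion. In samples 4 and 5, Pcna averaged 37.29 TPM in EHBR and 26.45 TPM in SD. Birc5 averaged 4.433 TPM in EHBR and 3.097 TPM in SD, and Tyms 6.093 and 3.405 TPM. In samples 1 to 3, Birc5 was lower in EHBR, at 6.742 against 7.068 TPM. Of 8 hepatocyte markers, 1 fell, Asgr1 at 434 ± 6.72 TPM in EHBR and 544 ± 21.2 TPM in SD (SD, n = 5 each), and 0 rose. Cps1 had an unadjusted p under 0.05 in the other direction (log2 difference 0.53, adjusted p = 0.135, limma), the median was 0.07, and the sums were 138495 to 159588 TPM in EHBR and 123588 to 152008 TPM in SD. Of 7 stellate, 2 cholangiocyte and 4 neutrophil and lymphocyte markers, 0 passed by limma or voom, and 1, 1 and 2 had an unadjusted p under 0.05. Their sums were 128 to 168, 12.3 to 13.9 and 7.89 to 11.1 TPM in EHBR, against 77.1 to 170, 15.3 to 17.5 and 10.3 to 16.8 TPM in SD. With the term for the sample numbers, limma called 13.6% of all genes higher and 3.36% lower. In either direction, this fit called 5 endothelial, 3 proliferation, 3 hepatocyte, 2 erythroid, 1 cholangiocyte and 1 neutrophil and lymphocyte marker. It called 0 Kupffer cell and 0 stellate markers. No marker of these lists was at 0 in all samples. Their part in the levels of Tkt and the other enzymes was not tested.

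The share of the 5 enzymes that passed can be read against that of all genes in each fit. With FPKM, 0 enzymes passed by limma, while 2.75% of all genes were higher and 2.04% lower. With upper-quartile FPKM, 0 enzymes passed, against 1.97% of genes higher and 2.41% lower, and after median centring 0 passed, against 1.74% and 2.4%. Voom called 0 enzymes, 2.78% of genes as higher and 1.79% as lower, and the fit without the length trend 0 enzymes, 2.24% and 2.63%. An unadjusted p under 0.05 was found for 2 enzymes with FPKM, voom and the length trend removed, against 19.1% of all genes in each. It was found for 1 enzyme with upper-quartile FPKM, against 19% of all genes, and for 1 after median centring, against 18.4%. Tkt was the 1 enzyme called among samples 1 to 3, where 4.35% of genes were higher and 2.17% lower, among samples 4 and 5, with 4.15% and 1.01%, and with the replicate number as a block, with 5.77% and 2%. Without SD sample 1, limma called 0 enzymes, 2.61% of genes as higher and 1.26% as lower, with an unadjusted p under 0.05 for 2 enzymes and 20.4% of genes. Without SD sample 5, Tkt and Taldo1 passed, with 3.16% and 1.62% of genes. With the term for the sample numbers and no length trend, Tkt, Taldo1 and, as lower, Pgls passed, as did 5.13% and 5.46% of all genes. Of the enzymes, 0 differed in strain effect between the parts by the limma interaction term (adjusted p 0.364 to 0.957), against 0.271% of all genes. All EHBR samples below all SD samples was the case for 0 of the enzymes and 2.02% of genes.

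**Figure D4:**
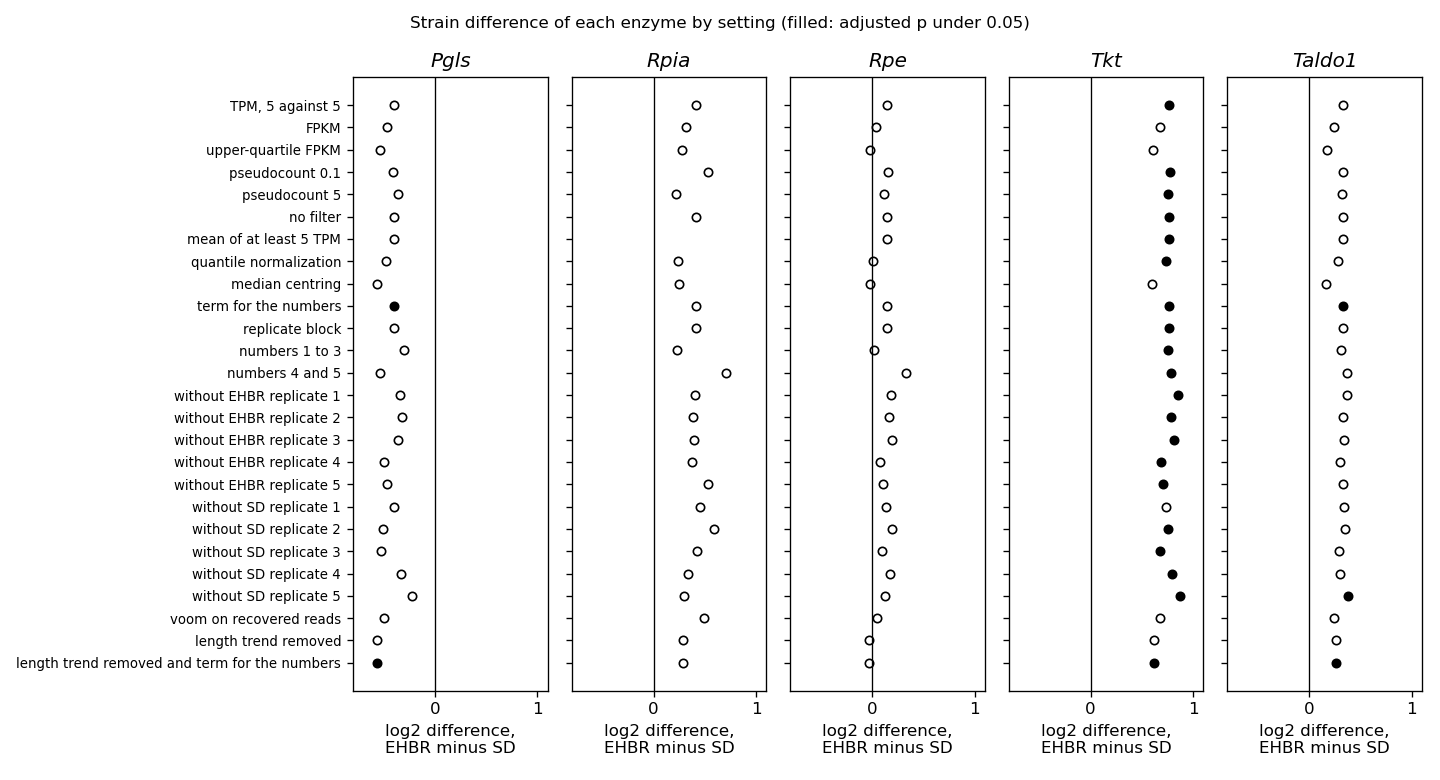
Log2 difference of each enzyme, EHBR minus SD, under each alternative (rows), with filled points where the adjusted p was under 0.05. Tkt lies between 0.60 and 0.88 in every row and Pgls between -0.57 and -0.23, while Rpe lies on both sides of 0, and Rpia has no value where a mean of at least 5 TPM was asked for.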

How the data were processed

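Libraries from 5 EHBR and 5 SD livers were poly(A)-selected and directional, per the labels' protocols. Per the submitters' processing notes, the tools were HISAT2 2.1.0, featureCounts 1.6.3, Trimmomatic 0.38 and FastQC 0.11.7, and the build was rn6. The strand setting of the counting is not given. The authors deposited TPM, FPKM and upper-quartile FPKM, the last a normalized signal that is a multiple of FPKM within each sample. Against FPKM scaled to the same total, TPM of the 5 enzymes differed by at most 0.17 on the log2 scale. Whole reads were recovered from the deposited upper-quartile FPKM with a gene length found for each of 18036 genes within 0.001 reads, and make up no less than 99.98% of each FPKM total.

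The enzymes, gene lists and tests were chosen with earlier results of these data known. The test was limma 3.58.1 in R 4.3.3 with the trend option on log2(TPM + 1), two-sided, with strain as its factor, and was tested on simulated data. Folds of low genes are understated by the added 1. The named genes are the 5 enzymes, H6pd, up to 3 called genes per metabolic or regulator list by adjusted p, or the most abundant gene where none was called, up to 2 called genes per marker list, and the 2 genes most like each enzyme, leaving out placeholder symbols. Kif1b, Me1, Nox4, Cps1, Cdk1, Top2a, Pcna, Tyms and Birc5 were named outside this rule, after their values were seen. Of 179 listed symbols, 169 matched. Some items of the lists are not reported here. Start regions and gene neighbours came from RefSeq tables of GRCr8. Ratios between enzymes, voom on recovered reads and fits without a lowess trend on gene length were chosen after seeing the data. Python 3.11.15, scipy 1.17.1 and matplotlib 3.10.9 were used for exact tests and figures.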

Additional observations from a re-analysis of the deposited data

Results flagged for a closer look

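Samples that stood apart from the other 4 of their strain by Dixon's test at 95% were looked for in 86 sets of 5 values, and 5 were found, where chance alone gives about 1 in 20. Rpia was lowest in EHBR sample 5, at 3.16 TPM. Ptges3, one of the genes most like Rpia, was lowest in EHBR sample 5, at 103 TPM. The Taldo1 to Rpia ratio was highest among EHBR samples in sample 5, at 50.2. The Tkt to Rpe ratio was highest among SD samples in sample 5, at 17.0, and the Tkt to Pgls ratio was highest among EHBR samples in sample 2, at 13.4. Without EHBR sample 5, the log2 difference of Rpia was 0.53 (adjusted p = 0.214, limma).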

How the results depend on the processing

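Over 26 alternatives, Tkt, Taldo1 and Pgls kept their direction. Some of these could not alter it. The changed gene filters, the term for the sample numbers, the replicate block and the exact permutation test leave the TPM difference itself as it was. Rpia did so in 25, and had no value with a mean of 5 TPM or more asked for. Alternatives for Pgd were not run, since it has no row. Tkt missed the threshold (limma) with FPKM (0.67), upper-quartile FPKM (0.60), median centring (0.60), voom (0.68) and the length trend removed (0.62). It also missed the threshold without SD sample 1 (adjusted p = 0.0518, limma). With a term for the sample numbers Pgls (-0.40) and Taldo1 (0.33) passed, as they did with the length trend removed as well (-0.56 and 0.26). Taldo1's exact permutation p was 0.00794 at 0.33, without adjustment, the smallest that 5 against 5 samples allow. Any gene whose samples do not overlap between strains reaches it, and 6.45% of genes lay wholly higher and 2.02% wholly lower in EHBR. Rpe was negative with upper-quartile FPKM (-0.021), median centring (-0.024) and the length trend removed, without and with that term (-0.030 and -0.030). Adi1 was negative with upper-quartile FPKM (-0.023) and median centring (-0.023). Over all genes, 423 were higher and 181 lower. Higher genes numbered 276 with FPKM, 197 with upper-quartile FPKM, 193 after centring, 1506 with the term, 639 with the block and 247 with the length trend removed. Lower genes numbered 290 under quantile normalization, 372 with the term, 112 in samples 4 and 5, 291 with the length trend removed and 603 with the term as well. The causes were not tested.

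Leaving out 1 sample gave 0.68 to 0.88 for Tkt, 0.29 to 0.38 for Taldo1, -0.53 to -0.23 for Pgls, 0.29 to 0.59 for Rpia, 0.08 to 0.19 for Rpe, 243 to 439 higher genes and 135 to 179 lower genes. Higher genes were fewest without EHBR samples 1 (276), 2 (243) and 3 (269). The share of calls that were higher was 70.0% with TPM, 42.0% after median centring, which moved the median gene to -0.02, 45.0% with upper-quartile FPKM, 57.5% with FPKM and 52.0% under quantile normalization. Same-numbered samples deviated together at r = 0.07 to 0.29, 4 of 5 pairs over 0.1, and 1 of 5 EHBR samples correlated best with its own number, so the numbers were not taken as pairs. Samples 1 to 3 and samples 4 and 5 form sets shared by both strains. With the replicate number as a block, Tkt was called (0.77, adjusted p = 0.00485, limma) and no other enzyme was. Depth limits Rpia most, with 50 reads in its lowest sample.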
